A study of Mus musculus with 6 samples.

Results

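The genes described here encode 10 enzymes that make serine and asparagine or pass one-carbon units from serine to folate: PHGDH, PSAT1, PSPH, SHMT1, SHMT2, MTHFD1, MTHFD1L, MTHFD2, ALDH1L2 and ASNS. They were picked by gene name from a table of 58735 genes. The rule uses no measured value, but it was set with earlier results of these data known. All 10 had enough reads to be tested among 17142 genes. The samples were RNA-Seq libraries of 22Rv1, a human prostate cancer cell line. One group, here called parental, was 22Rv1 given vehicle. The other was the 22Rv1 BL-B01D1_R subline, grown out of the parental cells under rising concentrations of BL-B01D1, an antibody-drug conjugate that binds EGFR and HER3 and carries the topoisomerase I inhibitor Ed-04. Each group had 3 libraries, and nothing in the labels says that they came from separate cultures. Only a single resistant subline was sequenced, so p-values measure the spread between libraries of 1 subline and not a repeated selection. Long-term culture, drug exposure and resistance cannot be told apart in this design. Although the organism is entered as mouse in the labels, the gene identifiers and the genome build (hg38) are human, and the values were read as human.

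Serine is made from the glycolytic intermediate 3-phosphoglycerate in consecutive steps by PHGDH, PSAT1 and PSPH. Serine hydroxymethyltransferases then split serine into glycine and a one-carbon unit bound to tetrahydrofolate, in the cytosol by SHMT1 and in mitochondria by SHMT2. In mitochondria the unit is oxidized by MTHFD2 and released as formate by MTHFD1L, or oxidized to carbon dioxide by ALDH1L2, and in the cytosol MTHFD1 takes formate up again for purine and thymidylate synthesis. ASNS makes asparagine from aspartate and glutamine. Several of these genes are known targets of ATF4, a transcription factor that is translated more when amino acids are short or the endoplasmic reticulum is stressed. Tumors often express the mitochondrial enzymes at a high level.

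Library totals ranged from 13821639 to 17251491 counts, and 3 counts correspond to 0.174 to 0.217 per 1000000 of these unscaled totals. CPM stands for counts per 1000000 of the library size of the tested genes after TMM scaling. Replicate libraries differed by more than counting noise (chi-square per degree of freedom 1.77 to 2.46 within groups), so all 6 were kept as separate samples. Among the luminal prostate markers reported here, HOXB13, FOLH1, KRT8 and KRT18 exceeded 100 CPM on average in both groups. KLK3 was low in both, at 2.03 to 3.16 CPM in parental and 3.60 to 6.04 CPM in resistant libraries. Other luminal markers, some of them also under 100 CPM, are not reported here. Of 10 markers of fibroblasts, endothelium and immune cells, the endothelial and immune markers and COL1A2 had at most 3 counts in any library. COL1A1 and DCN were under 20 CPM. LUM, a fibroblast-associated proteoglycan, stood out with 96.0 ± 2.96 CPM (SD, n = 3) in parental and 28.8 ± 2.40 CPM (SD, n = 3) in resistant libraries. The summed level of the 10 markers lay between 111 and 114 CPM in parental and between 39.0 and 43.8 CPM in resistant libraries, and its part in the changes below was not tested. In bulk RNA, fewer cells that express a gene and less RNA per cell cannot be told apart.

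All 10 enzymes were lower in the resistant subline at an FDR of less than 0.05 (edgeR's quasi-likelihood test, Benjamini-Hochberg adjustment over all genes tested), and none was higher. The call of ASNS did not hold with DESeq2, with limma on log2(FPKM + 1) or without either of 2 libraries. Over all genes tested, 18.4% were lower and 17.1% higher at that FDR. Abundant genes pass more often. Among the 5885 genes at or above the mean level of MTHFD1L, which include 9 of the enzymes, 25.8% were lower. The median log2 fold change of the enzymes was −0.43, against 0.0038 over all genes tested and −0.0096 over those 5885 genes. Most of the decreases were moderate. Only ALDH1L2 also changed by more than 1 on the log2 scale in either direction, the further threshold that the study set. Of all genes tested, 2.84% were called lower and 2.53% higher by both thresholds. In 9 of the 10 enzymes, every resistant library lay under every parental library, which held for 22.8% of all genes tested, and ASNS was the exception.

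**Figure D1:**
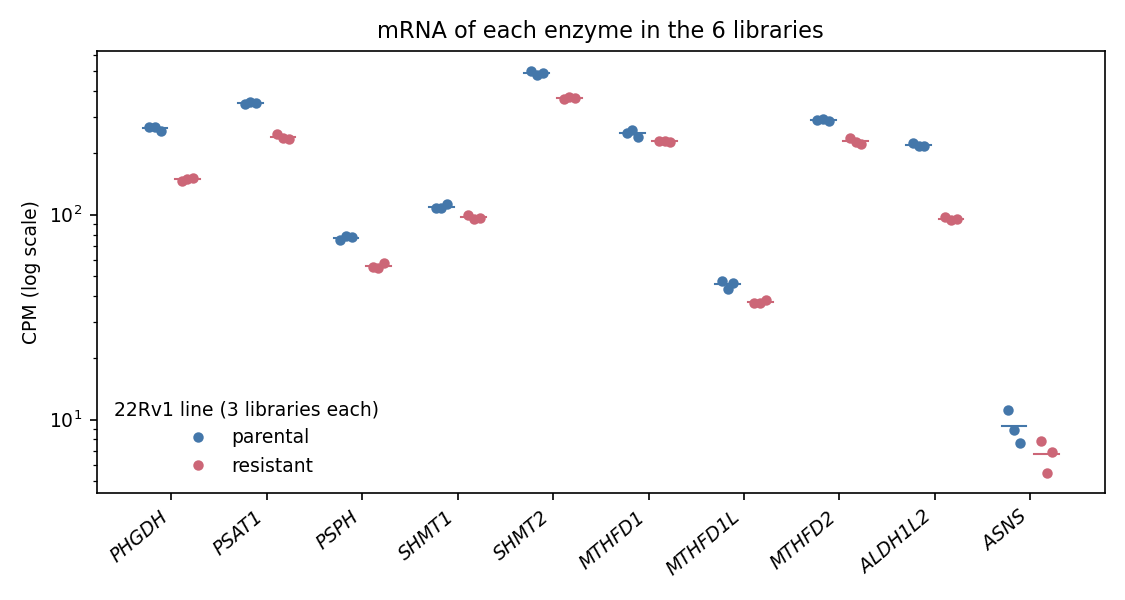
CPM of the 10 enzymes on a log axis, with a point for each library (3 parental, 3 resistant) and a short line at each group's mean. The points of the groups are apart for every gene but ASNS, which also lies under the others at 5.51 to 11.1 CPM.

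PHGDH (ENSG00000092621; hg38 chromosome 1, 119648411 to 119744226, forward strand) catalyzes the first and committed step of serine synthesis. Its mRNA was at 267, 269 and 257 CPM in the parental libraries and at 147, 150 and 151 CPM in the resistant libraries. The groups were far apart, and the resistant mean was 56.4% of the parental mean. Its log2 fold change was −0.83 (SE 0.033, edgeR FDR 1.07e-23), lower than that of all but 4.12% of the genes tested.

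PSAT1 (ENSG00000135069; chromosome 9, 78297143 to 78330093, forward strand), the aminotransferase of the next step, uses glutamate as its nitrogen donor. It was at 348, 356 and 349 CPM in parental libraries and 249, 236 and 234 CPM in resistant libraries. The lowest parental library thus stood well above the highest resistant one. This was a log2 fold change of −0.55 (SE 0.031, edgeR FDR 9.64e-19).

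PSPH (ENSG00000146733; chromosome 7, 56011051 to 56051604, reverse strand), the phosphatase that releases free serine, was the least abundant of these 3 in CPM. It was at 74.9, 79.0 and 77.8 CPM in parental libraries and 55.3, 54.7 and 57.9 CPM in resistant libraries. The resistant level was 72.5% of the parental level, with a log2 fold change of −0.46 (SE 0.050, edgeR FDR 3.39e-10). PSPHP1, a PSPH pseudogene on the same chromosome (55764797 to 55773288), had 35 to 68 counts a library, at most 5.96% of the counts of PSPH. Its sequence was not compared with that of PSPH here. PSPHP1 itself had a log2 fold change of −0.37 that did not pass the test (edgeR FDR 0.208). Between these 3 enzymes, the log2 ratio of PHGDH to PSAT1 fell by 0.27, that of PHGDH to PSPH fell by 0.36, and that of PSAT1 to PSPH fell by 0.09 with overlap between the groups. No such difference could pass a threshold of 0.05 (two-sided exact permutation test, p = 0.1, 0.1 and 0.2, where 0.1 is the smallest that 3 libraries against 3 allow).

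Of the serine hydroxymethyltransferases, the mitochondrial SHMT2 (ENSG00000182199; chromosome 12, 57229327 to 57234935, forward strand) was the most abundant of the 10 enzymes in CPM. It was at 504, 480 and 493 CPM in parental libraries and 367, 375 and 370 CPM in resistant libraries. All resistant libraries lay more than 100 CPM under the lowest parental one, with a log2 fold change of −0.41 (SE 0.028, edgeR FDR 6.08e-16).

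The cytosolic SHMT1 (ENSG00000176974; chromosome 17, 18327860 to 18363563, reverse strand) changed less. It was at 107, 108 and 113 CPM in parental libraries and 99.5, 95.1 and 96.2 CPM in resistant libraries. The groups did not overlap, and the resistant mean was 88.6% of the parental mean (log2 fold change −0.17, SE 0.041, edgeR FDR 8.12e-04). Relative to SHMT1, SHMT2 fell by 0.24 on the log2 scale (exact permutation test, two-sided, p = 0.1).

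Counted per length, as FPKM (CPM divided by the gene length in kilobases that the authors list), SHMT2 made up 87.6%, 87.0% and 86.8% of the sum of SHMT1 and SHMT2 in parental libraries. In resistant libraries it made up 84.7%, 85.6% and 85.3%. SHMT2 thus stayed the main transcript of the pair in both lines, at a slightly smaller share in each resistant library.

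ALDH1L2 (ENSG00000136010; chromosome 12, 105019784 to 105084577, reverse strand), the mitochondrial formyltetrahydrofolate dehydrogenase, which makes NADPH as it oxidizes one-carbon units, decreased most of the 10 enzymes. Its mRNA was at 224, 217 and 217 CPM in parental libraries and 97.6, 94.0 and 95.5 CPM in resistant libraries. The resistant level was 43.7% of the parental level, and the spread within each group was small (coefficient of variation 1.75% and 1.88%). The log2 fold change was −1.19 (SE 0.036, edgeR FDR 4.69e-28), at rank 31 of all genes tested by p-value. C12orf45 overlaps 84.0% of the ALDH1L2 locus on the opposite strand. The use of strand in the counting is not stated, so reads of the overlap cannot be assigned with certainty. C12orf45 moved the other way, from 647 to 797 counts in parental to 835 to 994 counts in resistant libraries (log2 fold change 0.32, edgeR FDR 1.80e-05).

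The other 9 enzymes fell less than ALDH1L2 by 0.37 (PHGDH) to 1.07 (MTHFD1) on the log2 scale. Over the 45 possible pairs of enzymes, the smallest adjusted p for a difference between members was 0.15 (exact permutation test). No pair could pass 0.05, since 0.1 is the smallest unadjusted p that 3 libraries against 3 allow. The test therefore cannot decide whether the decreases differ. In 30 of the 45 pairs, every pair with ALDH1L2 among them, the log2 ratio did not overlap between the groups. These pairs share genes and are not independent. The same share over pairs of other tested genes was not computed, so the count has no background to be read against.

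MTHFD2 (ENSG00000065911; chromosome 2, 74198562 to 74217565, forward strand), a mitochondrial dehydrogenase and cyclohydrolase that is prominent in embryonic and tumor cells, was at 289, 294 and 285 CPM in parental libraries. It was at 237, 226 and 221 CPM in resistant libraries, with no overlap. The log2 fold change was −0.34 (SE 0.032, edgeR FDR 6.00e-12), a decrease to 78.8% of the parental level.

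MTHFD1L (ENSG00000120254; chromosome 6, 150865549 to 151101887, forward strand), the mitochondrial synthetase that frees formate, was at 47.3, 43.4 and 46.3 CPM in parental and 37.2, 37.1 and 38.4 CPM in resistant libraries. The log2 fold change was −0.28 (SE 0.061, edgeR FDR 2.90e-04). The groups did not overlap, and the parental libraries were more spread out than the resistant ones.

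MTHFD1 (ENSG00000100714; chromosome 14, 64388031 to 64463457, forward strand), the trifunctional cytosolic enzyme, changed least. It was at 252, 258 and 240 CPM in parental libraries and 230, 229 and 227 CPM in resistant libraries. The groups were apart, and the resistant mean was still 91.5% of the parental mean (log2 fold change −0.13, SE 0.032, edgeR FDR 0.00132). ZBTB25 and 2 antisense genes overlap the MTHFD1 locus on the opposite strand. ZBTB25 had 301 to 506 counts a library and rose (log2 fold change 0.47, edgeR FDR 2.04e-06). In FPKM, MTHFD1L made up 23.9% to 26.5% of the sum of MTHFD1 and MTHFD1L in parental libraries and 23.2% to 24.0% in resistant libraries, ranges that overlap.

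ASNS (ENSG00000070669; chromosome 7, 97852118 to 97872542, reverse strand) was the least abundant and the least certain of the 10 enzymes. Its mRNA was at 11.1, 8.93 and 7.71 CPM in parental libraries and 7.90, 5.51 and 6.96 CPM in resistant libraries, from 81 to 192 counts. Resistant library 1 stood above parental library 3, and the coefficient of variation was 18.8% in parental and 17.8% in resistant libraries, against at most 4.41% for the other enzymes. The log2 fold change was −0.45 (SE 0.15, edgeR FDR 0.0130, 95% confidence interval −0.74 to −0.16). Without parental library 1 it was −0.29 (edgeR FDR 0.158) and without resistant library 2 it was −0.32 (edgeR FDR 0.113). With all 6 libraries kept, it also missed the threshold with DESeq2 (−0.45, FDR 0.0519) and with limma on log2(FPKM + 1) (−0.28, FDR 0.113). A gene of processed transcripts on the same strand, AC079781.5 (97851688 to 97972985), covers 100% of the ASNS locus and had 5 to 14 counts a library. The processed pseudogene AC005326.1 lies within ASNS on the opposite strand and had 3 to 21 counts (log2 fold change −1.02, edgeR FDR 0.0691). ASNSP3, an ASNS pseudogene on chromosome 13, had 2 to 6 counts, at most 5.61% of the counts of ASNS. How reads shared by overlapping genes were counted is not stated. The part of these 3 genes in the low ASNS level was not tested.

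**Figure D2:**
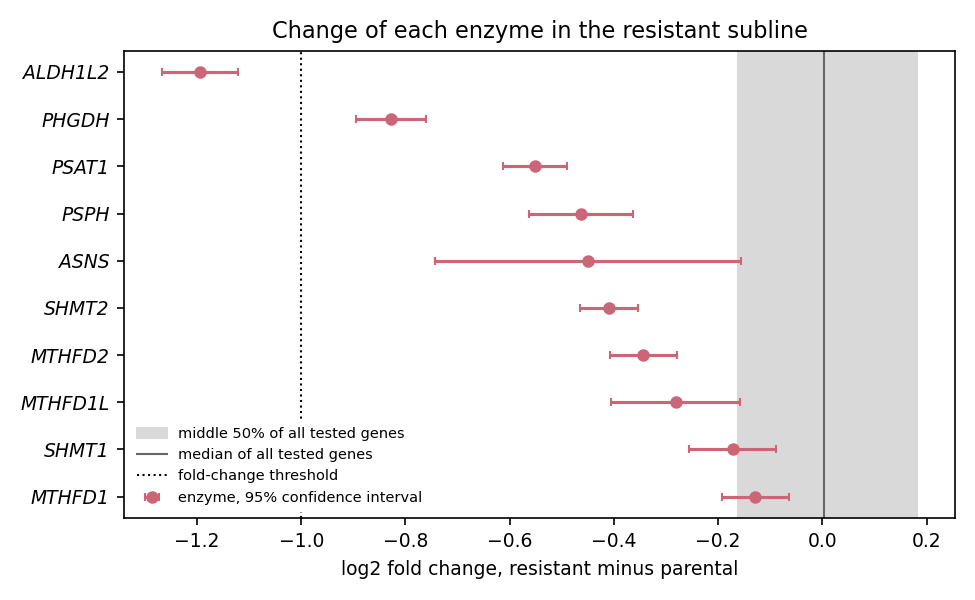
Log2 fold change of each enzyme (resistant minus parental) with its 95% confidence interval, ordered by size. The gray band holds the middle 50% of all genes tested (−0.16 to 0.18), the gray line their median and the dotted line the fold-change threshold. ALDH1L2 lies past the threshold, PHGDH follows at −0.83, and the cytosolic SHMT1 and MTHFD1 lie nearest to 0.

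Among the enzymes that carry one-carbon units on folate, the mitochondrial SHMT2, MTHFD2, MTHFD1L and ALDH1L2 had log2 fold changes of −0.28 to −1.19. The cytosolic SHMT1 and MTHFD1 had −0.17 and −0.13. These ranges do not overlap, but the 95% confidence intervals of MTHFD1L (−0.41 to −0.16) and SHMT1 (−0.26 to −0.09) do. For MTHFD1L and MTHFD1, the log2 ratio also overlapped between the groups (exact permutation test, two-sided, p = 0.2). PHGDH, PSAT1, PSPH and ASNS, which also act in the cytosol, had −0.83, −0.55, −0.46 and −0.45, all within the mitochondrial range.

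The order of the levels also changed. In parental libraries PSAT1 was highest (161 ± 1.97 FPKM, SD, n = 3), followed by SHMT2 (102 ± 2.44 FPKM) and MTHFD2 (59.4 ± 0.91 FPKM). The next 4 were PHGDH (28.7 FPKM), PSPH (28.0 FPKM), MTHFD1 (26.6 FPKM) and ALDH1L2 (25.8 FPKM), and each of these overlapped its neighbor in this order between libraries. SHMT1 (14.8 to 15.5 FPKM), MTHFD1L (9.10 FPKM) and ASNS (2.08 FPKM) were lower and did not overlap. In resistant libraries the first 3 places were the same, but the 4 similar genes had separated. MTHFD1 came next at 24.2 to 24.5 FPKM, then PSPH at 19.8 to 21.0 FPKM, PHGDH at 15.9 to 16.4 FPKM, SHMT1 at 13.1 to 13.7 FPKM and ALDH1L2 at 11.1 to 11.5 FPKM, with no overlap between neighbors. These levels depend on the listed gene lengths, which may differ from the transcripts in use.

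Across the 9 other settings and the 6 fits that each left out 1 library, all 10 enzymes kept a negative log2 fold change. Of these 15 fits, all kept PHGDH, PSAT1, PSPH, SHMT1, SHMT2, MTHFD1, MTHFD1L, MTHFD2 and ALDH1L2 at an FDR of less than 0.05, and 11 kept ASNS. The range over the fits was −1.21 to −1.13 for ALDH1L2, −0.85 to −0.79 for PHGDH and −0.15 to −0.11 for MTHFD1.

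**Figure D3:**
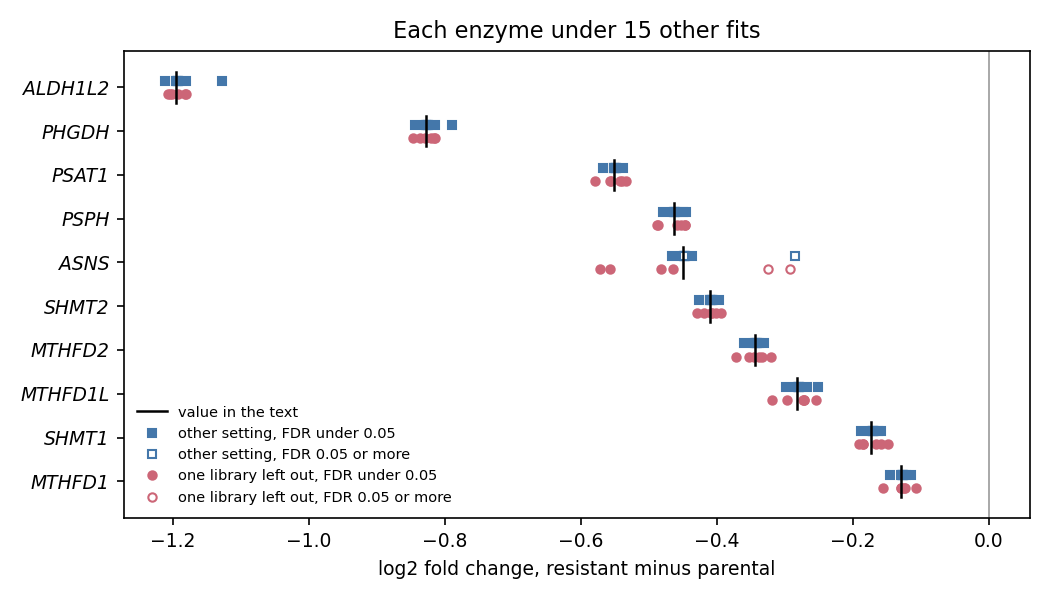
Log2 fold change of each enzyme in 15 other fits, with squares for the 9 other settings, circles for the 6 fits without 1 library and a black line at the value reported in the text. Open symbols, found for ASNS alone, mark an FDR of 0.05 or more.

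The other genes of the same metabolism moved less uniformly. For comparison, 18.4% of all genes tested were lower and 17.1% higher at an FDR of less than 0.05. Among the genes at or above the mean level of MTHFD1L, 25.8% were lower. These shares are the background for each list below, and no list was tested as a set. The counts of lower genes in serine and glycine use, purine synthesis and the methionine cycle were near 18.4%. Of 10 tested genes that use serine or glycine, 2 were lower and 3 higher at an FDR of less than 0.05 (median log2 fold change −0.04). GLDC, the decarboxylase of the mitochondrial glycine cleavage system, fell from 18.2 ± 1.90 to 12.5 ± 0.86 CPM (SD, n = 3 each; log2 fold change −0.54, edgeR FDR 2.76e-05). DLD and GCSH, other parts of that system, were higher, with log2 fold changes of 0.19 (edgeR FDR 5.71e-06) and 0.38 (edgeR FDR 0.00668), although GCSH overlapped between the groups.

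Of 18 tested genes of folate supply and the rest of the folate cycle, 6 were lower, none was higher and 12 did not pass (median −0.12). Without parental library 1, 1 gene was higher. SARDH and DMGDH, mitochondrial enzymes that pass methyl groups of sarcosine and dimethylglycine to folate, had the lowest values. SARDH fell from 42 to 65 counts in parental to 13 to 18 counts in resistant libraries (log2 fold change −1.71, SE 0.28, edgeR FDR 3.56e-06), and DMGDH from 48 to 79 to 29 to 31 counts (−1.01, SE 0.23, edgeR FDR 4.39e-04). SFXN1, the mitochondrial serine carrier, was at 159 to 173 CPM in parental and 136 to 143 CPM in resistant libraries (−0.24, edgeR FDR 1.09e-06). TYMS, which uses the one-carbon unit to make thymidylate, was at 65.1 to 72.5 CPM in parental and 66.9 to 69.3 CPM in resistant libraries (−0.01, edgeR FDR 0.871).

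Among 13 tested genes of de novo purine synthesis, which consumes cytosolic one-carbon units, 3 were lower, 2 were higher and 8 did not pass (median −0.07). With library size alone in place of TMM, 6 were lower. Of 9 tested genes of the methionine cycle, 2 were lower and 3 higher (median −0.0057).

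Of 20 tested enzymes of other nonessential and branched-chain amino acids, 8 were lower and 6 higher (median −0.09). BCAT1, a cytosolic branched-chain aminotransferase, fell from 10.4 ± 0.45 to 2.60 ± 0.25 CPM (SD, n = 3 each; log2 fold change −2.00, SE 0.16, edgeR FDR 8.86e-14). The urea cycle enzyme ASS1, which uses aspartate, and the alanine aminotransferase GPT had log2 fold changes of −0.98 (edgeR FDR 1.80e-07) and −0.92 (edgeR FDR 4.50e-08). PYCR1, the last enzyme of mitochondrial proline synthesis, and GLUL, glutamine synthetase, both had log2 fold changes of −0.51, with an edgeR FDR of 1.63e-15 and 1.37e-13.

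Of 7 tested transporters of serine, glycine and asparagine, 5 were lower and 1 was higher (median −0.38). SLC1A5, which carries serine, asparagine and glutamine, was at 229 to 234 CPM in parental and 115 to 129 CPM in resistant libraries (log2 fold change −0.95, edgeR FDR 8.56e-24). SLC6A9, a glycine transporter, and SLC1A4, a serine exchanger, had log2 fold changes of −0.73 (edgeR FDR 1.70e-09) and −0.55 (edgeR FDR 3.52e-12). In contrast, SLC38A4 rose from 11.0 ± 0.97 to 19.4 ± 2.57 CPM (SD, n = 3 each; 0.81, edgeR FDR 2.85e-08).

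**Figure D4:**
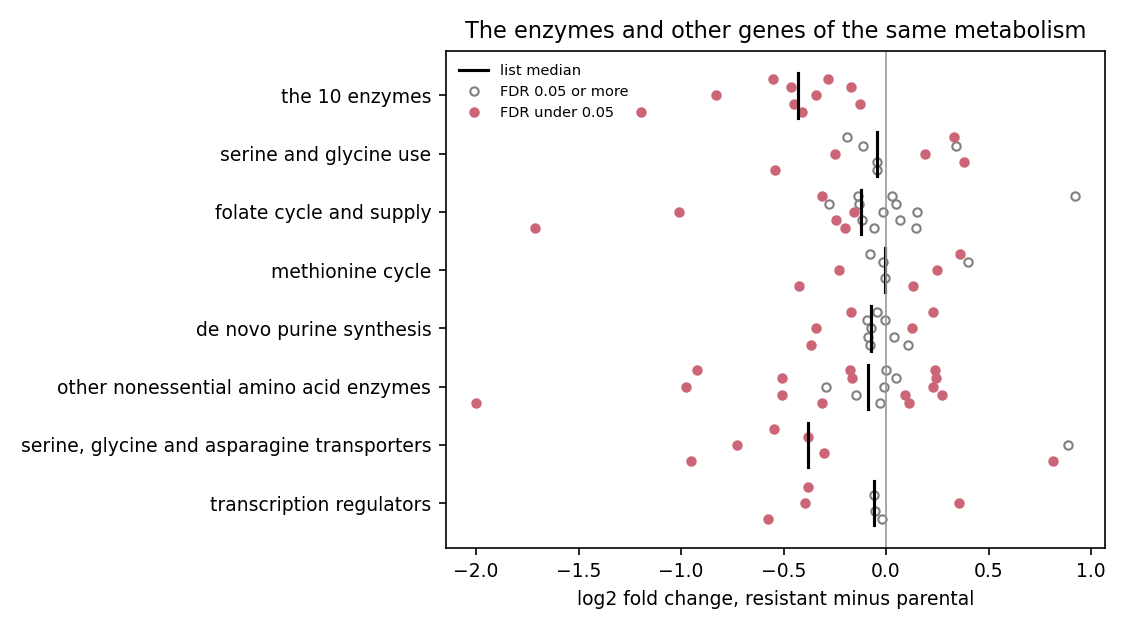
Log2 fold change of each tested gene in the 10 enzymes and in 7 lists of related genes, with a black bar at each list's median. Filled points have an FDR of less than 0.05. The median is lowest for the 10 enzymes (−0.43) and the transporters (−0.38), and the other lists have medians between −0.12 and −0.0057.

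Of 7 transcription regulators linked to these genes, 3 were lower, 1 was higher and 3 did not pass. ATF4 mRNA was at 436, 415 and 426 CPM in parental libraries and 315, 323 and 332 CPM in resistant libraries (log2 fold change −0.40, SE 0.029, edgeR FDR 9.17e-15). CEBPG, a dimerization partner of ATF4, fell by 0.58 on the log2 scale (edgeR FDR 1.59e-15) and CEBPB fell by 0.38 (edgeR FDR 9.45e-06). TRIB3, also a known ATF4 target, moved the other way, from 160 to 175 CPM in parental to 209 to 214 CPM in resistant libraries (0.35, edgeR FDR 4.82e-11). For DDIT3, another such target, the value was −0.06 (edgeR FDR 0.742). Counts of mRNA do not measure the amount or the activity of these proteins.

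The genes whose profile over the 6 libraries was most like that of ALDH1L2 were ALDH3B1, CDH23, ANKDD1A, OAF and CD44, with a root mean square distance of 0.0414 to 0.0557 in centered log2 CPM. Their log2 fold changes were −1.25 (ALDH3B1), −1.20 (CDH23), −1.21 (ANKDD1A), −1.24 (OAF) and −1.10 (CD44). None is an enzyme of the set. With only 2 groups of libraries, such a likeness mostly restates a similar fold change.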

How the data were processed

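Per the labels and the study's methods, the authors purified polyadenylated RNA, sequenced it on an Illumina NovaSeq instrument, processed the reads with fastp and HISAT2 2.0.5 (hg38) and counted them per gene with featureCounts 1.5.0-p3. The annotation release, the use of strand and the treatment of reads shared by overlapping genes are not given in the sources used here. The deposited table holds raw counts. The other quantity used from it is the gene length in bases that the authors list.

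Genes were filtered with edgeR's filterByExpr, scaled with TMM and tested by the quasi-likelihood method of edgeR 4.0.16 in R 4.3.3, with p-values adjusted over the 17142 genes tested. The SE is the size of the log2 fold change divided by the square root of F. The alternatives tried were DESeq2 1.42.0, limma-voom with limma 3.58.1 (the study names limma, without voom), limma on log2(FPKM + 1), scaling by library size alone or by the upper quartile, a minimum of 10 counts in every library or none, protein-coding genes only, the replicate number as a block, and each library left out in turn. Scripts were tested on simulated data. Single ratios were compared with an exact permutation test.

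The enzymes and the gene lists were chosen with earlier results of these data known. Besides the enzymes, up to 5 genes a list were named for an FDR under 0.05 with a log2 change over 0.5 in size. ATF4, some pseudogenes of the enzymes and the 5 most similar profiles were also named. Others were named after their values were seen. No human sequence was used here. Some luminal marker genes are not reported here.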

Additional observations from a re-analysis of the deposited data

How the results depend on the processing

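Of 508 alternative values, 494 had the same direction and the same outcome at an FDR of 0.05, or, for counts of genes, lay within 1.5 times the reported count, or, for shares of a pair, within 1 SD of the libraries. Of the enzymes, ASNS alone lost its call. Its log2 fold change was −0.45 (FDR 0.0519) with DESeq2 and −0.28 (FDR 0.113) with limma on log2(FPKM + 1), and ranged from −0.57 to −0.29 with 1 library left out. The number of enzymes lower at an FDR of less than 0.05 was accordingly 9 or 10. Over all genes, 487 were called lower and 434 higher. These counts became 64 and 116 with limma on log2(FPKM + 1), which moved the balance toward higher calls, and 287 and 248 with at least 10 counts in every library. Purine synthesis genes that were lower numbered 6 in place of 3 with library size alone. Folate genes that were higher ranged from 0 to 1 with 1 library left out. Without division by gene length, SHMT2 made up 81.8% of its pair in parental and 79.3% in resistant libraries, and MTHFD1L 15.5% and 14.1%. The cause of these changes was not tested, apart from the division by length. Library scaling moved the median of all genes by less than 0.1.

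Same-numbered libraries did not deviate together (correlations of −0.0081, −0.0196 and −0.0157, and 0 of 6 libraries correlated best with its own number). Blocking on the replicate number left 3069 genes lower and 2814 higher at an FDR of less than 0.05, against 3153 and 2928 without the block. All 10 enzymes stayed lower, and ALDH1L2 had a log2 fold change of −1.19 (FDR 1.94e-20). ASNS had 81 to 192 counts a library, and the part of depth in its spread was not tested.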
